A study of Mus musculus with 10 samples.

Results

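The genes described here are 8 members of the tripartite motif (TRIM) family that respond to interferon: Trim14, Trim21, Trim25, Trim26, Trim30a, Trim30d, Trim34a and Trim56. They were chosen by their symbols as interferon-regulated genes, with earlier results of these data known, out of 23370 gene symbols in the deposited transcript table. Each symbol is given by its RefSeq transcript of highest mean level. Levels are in RPKM, which scales the reads of a transcript to its length in kilobases and to the depth of the library. The cells were mouse embryonic fibroblasts (MEFs) of C57BL/6 background, all carrying the H3.3b-HA knock-in, an exchange of the H3f3b gene for a tagged H3.3-HA cDNA, so no library comes from cells without it. The pretreated arm is labelled as having had a pretreatment and the naive arm as naive. The deposited column headers of the pretreated arm read PreIFN, so the agent is given as interferon. Its type, dose and length and any interval before 0 h are not stated in the labels. Each arm was sampled at 0, 1, 2, 4 and 6 h, read here as hours after interferon-beta (IFN-β, stated at 100 U per ml). Each arm and time has 1 library, so no level has a replicate of its own, and no library is labelled as unstimulated after 0 h.

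TRIM proteins share a RING domain with ubiquitin ligase activity, B-box zinc fingers and a coiled coil, and most members here end in a PRY-SPRY domain that binds their targets. Many are themselves induced by interferon: secreted interferon acts through its receptor, the JAK kinases and transcription factors such as STAT2 and IRF9, which bind response elements at the induced genes. TRIM25 attaches ubiquitin chains to the RNA sensor RIG-I and TRIM56 to the DNA-sensing proteins STING and cGAS, and TRIM21 is a cytosolic receptor for antibody-coated virus. TRIM14, which lacks the RING, works with the mitochondrial adaptor MAVS, TRIM26 acts on IRF3, and TRIM30a, known from mice, restrains NF-kB signalling through TAB2 and TAB3.

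Depth, in counts over 1 transcript per gene, ran from 83907506 to 268463961 per pretreated library and from 94402402 to 261020465 per naive library. The libraries expressed fibroblast genes throughout: all 10 listed markers were detected, at a summed 9877 to 12922 RPKM in pretreated and 11611 to 14441 RPKM in naive libraries. Of 9 macrophage and leukocyte markers in the table, 7 did not reach 1 RPKM in 2 libraries. Ptprc, the common leukocyte antigen, did not exceed 0.003 RPKM, and Emr1, the F4/80 antigen of macrophages, was at 0 counts throughout. The remaining markers, Cd68 and Cd14, were above 1 RPKM in every library. Cd68 stood at 1.89 to 3.57 RPKM in pretreated and 2.08 to 3.44 RPKM in naive libraries. Cd14 stood at 4.55 to 8.29 RPKM in pretreated and 3.79 to 4.94 RPKM in naive libraries. Other RNAs set libraries apart. The noncoding RNAs Rmrp and Rpph1 stood at 76.0 and 110.2 RPKM in the pretreated 0 h library, against 5.98 and 11.9 RPKM in the naive 0 h library, and the ribosomal precursor Rn45s took 3.90% of the counts there against 1.01%. The imprinted RNA H19 stood at 43.7 and 44.4 RPKM in the pretreated libraries of 1 and 4 h, while the other pretreated ones had 9.19 to 9.78 RPKM and the naive libraries 53.4 to 123 RPKM. At 0 h it stood at 9.39 RPKM in pretreated and 109.7 RPKM in naive cells. The part of these RNAs in the results below was not tested. Each test was repeated without the pretreated 1 and 4 h libraries, and those that could be fitted also without the pretreated 0 h library.

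The genes lie on 5 chromosomes of mm10. Trim30a (chr7:104409026-104465193, minus strand) and Trim30d (chr7:104470014-104507849, minus strand) are neighbours 4.82 kb apart. Trim34a (chr7:104244457-104262236, plus strand) lies 146.8 kb from Trim30a in the same cluster, and Trim21 (chr7:102557922-102565469, minus strand) 1679 kb from Trim34a. Trim14 is at chr4:46506847-46536144 (minus strand), Trim25 at chr11:88999403-89020293 (plus strand), Trim26 at chr17:36837141-36859380 (plus strand) and Trim56 at chr5:137111286-137116207 (minus strand).

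Because all 8 genes rose after interferon, their start regions, from RefSeq on GRCm38.p6, were searched for the core of the interferon-stimulated response element. This core is GAAA, any 2 bases, then GAAA, on either strand. A window was available for 7 of the genes, all but Trim14. The windows run from 250 bases before to 50 after an annotated start. Of the 8 windows (2 for Trim30a), 6 held a match, against 3.44% of 32851 windows of all genes. The windows of Trim30a and Trim30d hold the same matched letters, so they are not separate cases. The genes were also chosen as interferon-regulated. A match is a description of letters and not a shown binding site. The stretches around the matches are given 5′ to 3′ on the gene's strand, with the matched letters in capitals. Left out is that of the Trim30a window at chr7:104446076-104446375, whose match begins at position 3. In Trim21 and Trim26 2 matches overlap, and in Trim26, Trim30a, Trim30d and Trim34a the match is read on the opposite strand.

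Trim21, chr7:102565447-102565476: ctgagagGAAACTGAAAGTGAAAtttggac

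Trim26, chr17:36836979-36837008: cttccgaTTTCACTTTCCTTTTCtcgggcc

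Trim34a, chr7:104244457-104244486: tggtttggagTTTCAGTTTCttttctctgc

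The matches begin at position 14 from the start (position 1) in Trim21, at position 11 in Trim34a and at position -160 in Trim26. For the Trim30 pair 80 bases before each start are shown, since the regions are near copies: with Trim30d moved by 5 bases, 276 of 295 bases were identical (93.6%). The match begins at position -36 in Trim30a and at position -41 in Trim30d, with the same flanking letters.

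Trim30a, chr7:104465194-104465273: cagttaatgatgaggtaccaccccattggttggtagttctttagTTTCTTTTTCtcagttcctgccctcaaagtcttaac

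Trim30d, chr7:104507850-104507929: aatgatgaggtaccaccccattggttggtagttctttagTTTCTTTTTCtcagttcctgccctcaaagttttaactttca

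The windows of Trim25 and Trim56 held neither this motif nor TTCNNNGAA, the core of the gamma-activated sequence, which 8.30% of all windows hold and 0 of the 8 windows here. These letters are only absent from these windows.

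In naive cells the genes followed 2 courses. Trim25, Trim21, Trim26 and Trim56 were near their highest level by 2 h and lower at 6 h, whereas Trim30a, Trim30d, Trim34a and Trim14 were highest at 6 h, the last time sampled. Trim25, the RIG-I ligase, stood at 10.0, 57.0, 103, 75.1 and 62.0 RPKM at 0, 1, 2, 4 and 6 h in naive cells. It was thus at 55.5% of its highest naive level after 1 h and at 60.4% of it at 6 h. Trim21, the antibody receptor, had 1.37, 17.5, 46.2, 42.7 and 39.3 RPKM. Its 1 h level was 12.8-fold its 0 h level (95% interval of the counting error 11.5 to 14.3), the largest 1 h ratio among the 8. Trim26, which lies in the MHC region, had 15.0, 29.1, 55.9, 59.3 and 52.5 RPKM, with its 2 h level at 94.4% of the 4 h one. Trim56, the STING ligase, had the narrowest range, with 4.20, 8.60, 12.5, 10.7 and 8.42 RPKM, and at 6 h was at 67.2% of its 2 h level.

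The later genes were still low at 1 h. Trim30a had 5.88, 13.0, 59.4, 122 and 149 RPKM at 0, 1, 2, 4 and 6 h in naive cells, and had reached 8.72% of its highest level at 1 h. Its neighbour Trim30d, whose protein is a close relative, began higher at 11.2 RPKM and had 16.0, 36.6, 55.9 and 61.3 RPKM at the later times. Trim34a had 0.679, 2.37, 11.3, 20.8 and 23.8 RPKM; its human relative TRIM34 is known to bind retroviral capsids. The slowest was Trim14, the adaptor without a RING, with 0.119, 0.354, 4.02, 15.5 and 20.2 RPKM, which had reached 1.75% of its highest level at 1 h and 19.9% at 2 h. Its 6 h level was 169.8-fold that at 0 h, where only 16 counts were seen, so that counting error alone allows 104 to 296-fold.

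**Figure D1:**
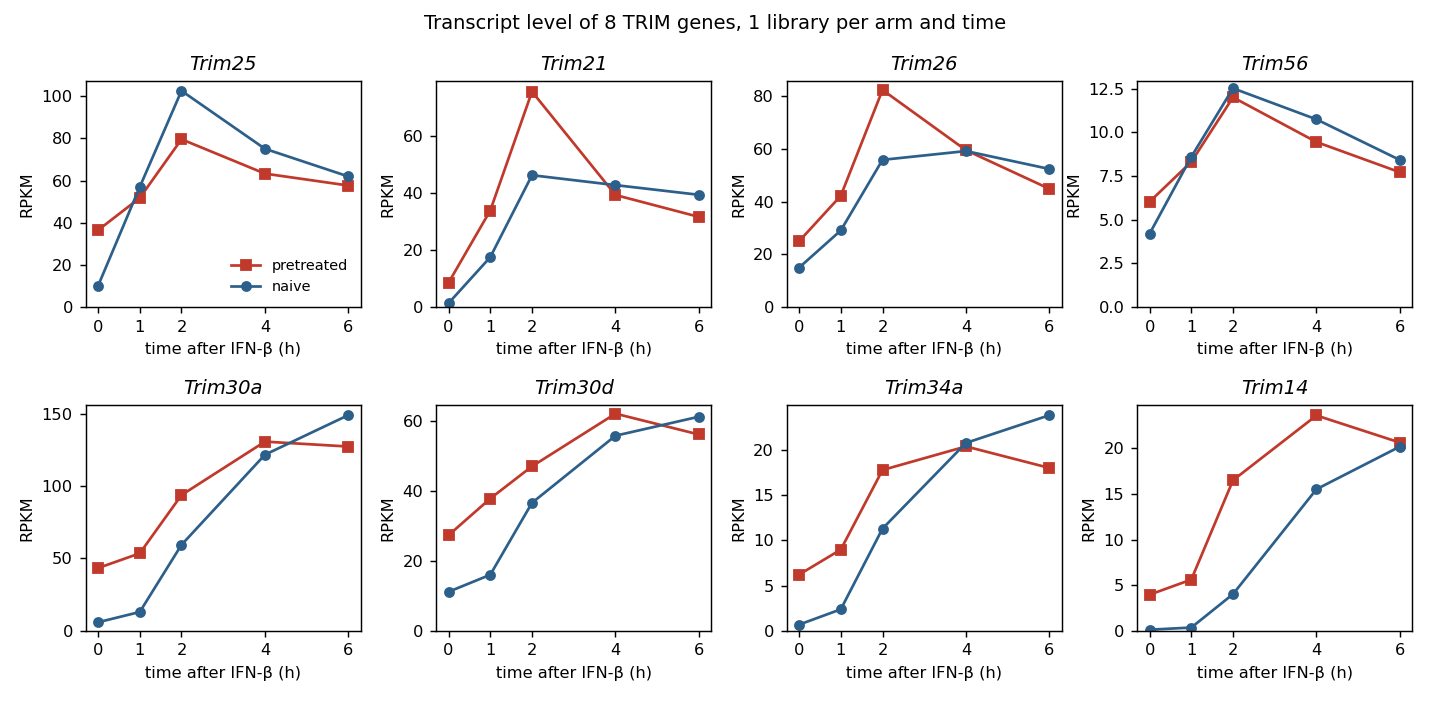
RPKM (vertical axis, from 0, with its own scale per gene) against hours after IFN-β for each of the 8 genes; red squares are pretreated and blue circles naive libraries, 1 library per point, so no error bar can be drawn. The upper row holds the genes highest at 2 or 4 h in naive cells, such as Trim25 with 103 RPKM at 2 h, and the lower row those highest at 6 h, such as Trim30a with 149 RPKM.

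**Figure D2:**
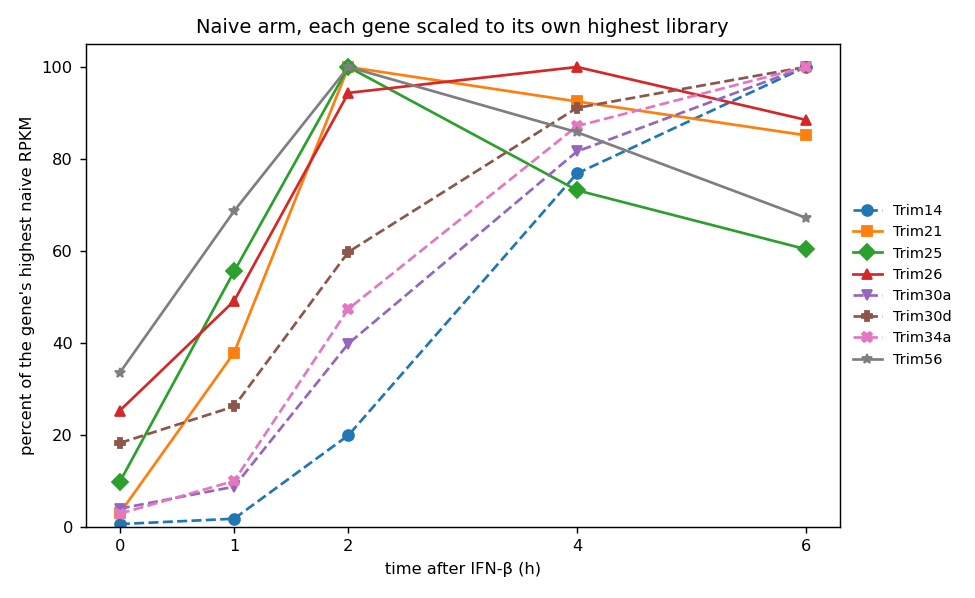
Naive libraries only: each gene's RPKM as a percent of its own highest naive library (vertical axis) against hours after IFN-β. Solid lines are Trim21, Trim25, Trim26 and Trim56 and dashed lines Trim14, Trim30a, Trim30d and Trim34a; at 2 h the solid lines lie between 94.4 and 100% and the dashed lines between 19.9 and 59.8%.

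Set against all genes, a top at 2 h was the less common course. Of the 12168 genes that reached 1 RPKM in 2 or more libraries, 923 were 2-fold or more above naive 0 h at some time (on the log2(RPKM + 1) scale, which understates changes of genes of low level). Their highest naive library was 1 h for 7.37%, 2 h for 13.2%, 4 h for 22.8% and 6 h for 56.7%. Among the 8 TRIM genes it was 2 h for 3, 4 h for 1 and 6 h for 4.

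At 1 h 4 of the 8 were 2-fold or more above naive 0 h (2.02% of all genes), namely Trim21, Trim25, Trim30a and Trim34a. All 8 were in the 2 h library (3.95% of all genes) and the 4 h library (5.71%), and 7 in the 6 h library (6.20%), the exception being Trim56 with a log2 difference of 0.86. These counts use log2(RPKM + 1). In plain RPKM Trim56 was 2.01-fold above naive 0 h at 6 h. At 1 h Trim14 and Trim56 were 2.98-fold and 2.05-fold above it. In pretreated cells, which began higher, 1 of the 8 (Trim21) was 2-fold or more above the arm's own 0 h level after 1 h (1.31% of all genes). The number was 6 after 2 h (3.60%), 6 after 4 h (4.19%) and 5 after 6 h (3.15%). At 6 h over 0 h the members' median log2 difference was 1.21 in pretreated cells, against -0.03 over all genes, and 3.20 in naive cells, against -0.08 over all genes. The filter let Trim14 and Trim34a pass through libraries where they are high: Trim14 was under 1 RPKM in the naive 0 and 1 h libraries and Trim34a in the naive 0 h library. These folds compare single libraries and have no replicate check.

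Over both arms, all 8 genes rose at 2 to 6 h over 0 h, in a model across all genes with arm and time as terms (edgeR's quasi-likelihood test on the counts, Benjamini-Hochberg adjustment, 4 residual degrees of freedom). The rise was called in 19.9% of all genes. Here the arms stand in for replicates, so the p-values measure how far the change differs between 2 arms and not between cultures. Trim14 had the largest log2 change, 3.79 (SE 1.06, edgeR adjusted p = 0.0285), and Trim56 the smallest, 1.03 (SE 0.15, edgeR adjusted p = 0.00563). Trim21 rose by 3.50 (SE 0.64), Trim34a by 2.88 (SE 0.77) and Trim30a by 2.65 (SE 0.70). Trim25 rose by 1.75 (SE 0.46), Trim26 by 1.65 (SE 0.22) and Trim30d by 1.63 (SE 0.33). The smallest edgeR adjusted p among the 8 was that of Trim26, 0.00527. Without the naive 0 h library 0 of the 8 passed in edgeR, with adjusted p between 0.0571 and 0.133. Only 8 of all genes passed in that fit. The log2 changes were then smaller, with 2.80 for Trim14, 1.90 for Trim34a, 1.73 for Trim30a, 0.93 for Trim25 and 0.73 for Trim56. Without the pretreated 0 h library all 8 passed with larger changes, 6.36 for Trim14, 4.598 for Trim34a, 4.01 for Trim30a, 3.03 for Trim25 and 1.38 for Trim56. Without the pretreated 1 and 4 h libraries 4 passed, and Trim14, Trim25, Trim30a and Trim34a had edgeR adjusted p between 0.0511 and 0.0562, with log2 changes of 3.93, 1.94, 2.77 and 3.03 that were no smaller than with all libraries.

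At 0 h pretreated cells held more of every one of these transcripts than naive cells. Trim30a stood at 43.3 RPKM in the pretreated and 5.88 RPKM in the naive 0 h library, the largest difference of the 8 on the log2(RPKM + 1) scale (2.69) and a 7.37-fold ratio. Trim14 stood at 3.96 and 0.119 RPKM, the largest ratio, 33.3-fold (counting error 20.3 to 58.4), Trim34a at 6.21 and 0.679 RPKM (9.14-fold) and Trim21 at 8.55 and 1.37 RPKM. Trim25 stood at 36.5 RPKM in pretreated and 10.0 RPKM in naive cells, and Trim30d at 27.4 and 11.2 RPKM. Trim26, with 25.0 RPKM in pretreated and 15.0 RPKM in naive cells, and Trim56, with 6.03 and 4.20 RPKM, were less than 2-fold apart. So 6 of 8 were 2-fold or more higher in pretreated cells (2.56% of all genes), with a median log2 difference of 1.89 against 0.00 over all genes. The pretreated 0 h library is the one with high Rmrp, Rpph1 and Rn45s, whose part in these differences was not tested. A higher share of responding cells and more RNA per cell cannot be told apart in bulk RNA.

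The pretreated 0 h level made up a different part of each gene's naive maximum. These shares include the level that naive cells already had at 0 h. That level weighs most where the naive rise was small. The naive maximum was 2.99-fold naive 0 h for Trim56, 3.96-fold for Trim26 and 5.49-fold for Trim30d. It was 10.2-fold for Trim25, 25.3-fold for Trim30a, 33.8-fold for Trim21, 35.1-fold for Trim34a and 169.8-fold for Trim14. The share of the rise alone is not given. The pretreated 0 h level was 48.1% of the naive maximum for Trim56, 44.7% for Trim30d, 42.2% for Trim26 and 35.5% for Trim25. It was 29.1% for Trim30a, 26.1% for Trim34a, 19.6% for Trim14 and 18.5% for Trim21.

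After 0 h the arms drew together, each gene in its own way. Trim25 in pretreated cells had 36.5, 51.8, 79.6, 63.3 and 57.7 RPKM at 0, 1, 2, 4 and 6 h. It was below the naive level at each of the 4 times after 0 h, with 79.6 RPKM in pretreated against 103 RPKM in naive cells at 2 h, a ratio of 0.776. Trim56 took almost the same course in both arms after 0 h, with 8.31, 12.0, 9.45 and 7.72 RPKM at 1, 2, 4 and 6 h in pretreated cells, 0.879 to 0.967 of the naive level.

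Trim21 and Trim26 behaved differently from Trim25, although all of them top early. Trim21 had 8.55, 33.8, 75.5, 39.3 and 31.6 RPKM in pretreated cells, and at 2 h stood 1.63-fold above its naive level. Trim26 had 25.0, 42.3, 82.5, 59.6 and 44.9 RPKM in pretreated cells, 1.48-fold above naive at 2 h. For both the pretreated 2 h library was the highest of all 10, and at 6 h the pretreated library was below the naive one, at 0.803 of it for Trim21 and 0.856 for Trim26. The 6 h level of Trim21 was 41.9% of its 2 h level in pretreated cells, against 85.2% in naive cells.

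The later genes were ahead in pretreated cells at least until 2 h and reached their pretreated top earlier. Trim30a had 43.3, 53.5, 93.8, 131 and 127 RPKM at 0, 1, 2, 4 and 6 h in pretreated cells. Trim30d had 27.4, 37.9, 47.1, 62.2 and 56.2 RPKM, and Trim34a 6.21, 8.97, 17.8, 20.4 and 18.0 RPKM. Trim14 had 3.96, 5.62, 16.5, 23.6 and 20.6 RPKM, and its lead over naive cells lasted longest, at 15.9-fold at 1 h, 4.11-fold at 2 h and 1.52-fold at 4 h. All 4 genes were highest in the pretreated 4 h library, where H19 stood above most of the pretreated arm and below every naive library, and at 6 h in naive cells. Without the pretreated 4 h library their pretreated top is at 6 h. A top before 6 h was also the general course in this arm: of 682 genes 2-fold or more above pretreated 0 h at some time, 38.0% were highest at 2 h, 39.7% at 4 h and 18.0% at 6 h.

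After 1 h 4 of the 8 were 2-fold or more higher in pretreated than in naive cells (1.55% of all genes), after 2 h only Trim14 (1.55%), after 4 h 0 (0.238%) and after 6 h 0 (0.156%). None was 2-fold or more lower, where 0.838%, 0.814%, 0.953%, 0.131% and 0.214% of all genes were at 0, 1, 2, 4 and 6 h. The 8 genes had median log2 differences of 1.89, 1.05, 0.58, -0.01 and -0.17 at these times, and at 6 h 7 of 8 were below their naive level. Over all genes the median lay between -0.03 and 0.05 at these times.

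**Figure D3:**
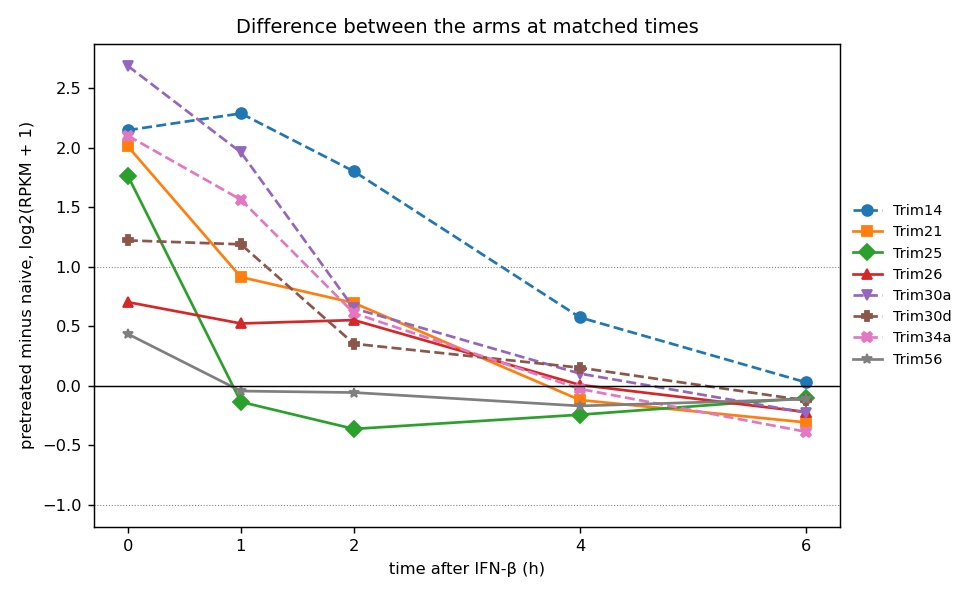
Pretreated minus naive difference on the log2(RPKM + 1) scale (vertical axis) against hours after IFN-β, 1 pair of libraries per point; dotted lines mark a fold of 2. Trim14 stays above 1.80 until 2 h, Trim25 is at 1.77 at 0 h and below 0 from 1 h on, and at 6 h 7 of the 8 genes lie below 0.

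Averaged over the 5 times, 0 of the 8 genes passed between the arms in edgeR, where 0.386% of all genes were called higher and 0.879% lower in pretreated cells. At an unadjusted p under 0.05 there were 2 (21.9% of all genes), Trim14 at 2.0 on the log2 scale (SE 0.72), with an edgeR adjusted p of 0.176, and Trim30d at 0.57 (SE 0.23), with an edgeR adjusted p of 0.210. DESeq2 called these 2, among 1371 of the 12168 genes tested. In limma 0 of the 8 were called, where 204 genes were. The estimate for Trim25 was 0.15 (SE 0.32) and that for Trim56 0.00 (SE 0.11), and both take the opposite sign without either 0 h library. In this model an arm difference that changes with time, as seen for all 8, counts as error.

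The change after 0 h was smaller in pretreated than in naive cells for all 8 estimates, but 0 passed in edgeR (the term that sets the later times against 0 h by arm, 3 residual degrees of freedom; 0.00% of all genes called). Trim25 had the smallest p-value of all 12168 genes in this test, with a log2 difference of -2.10 (SE 0.16, unadjusted p = 1.025e-05, edgeR adjusted p = 0.0516). Its edgeR adjusted p was 0.0825 to 0.253 with single libraries left out, 0.294 without the pretreated 1 and 4 h libraries and 0.00997 with no filter on low genes. In limma it was 0.0181 and in DESeq2 5.21e-29. The term is the arm difference at the later times minus that at 0 h. Its negative sign therefore restates in part the higher pretreated 0 h levels given above. The test rests on 1 unstimulated library per arm. Other genes shared the edgeR adjusted p of 0.0516. Among them were Rmrp, the RNA that stood high in the pretreated 0 h library, and Usp18. Usp18 stood at 76.6 RPKM in the pretreated and 0.398 RPKM in the naive 0 h library.

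At an unadjusted p under 0.05 there were 5 members in edgeR, against 6.09% of all genes: Trim25, Trim21 with -2.36 (SE 0.55), Trim56 with -0.65 (SE 0.16), Trim34a with -2.70 (SE 0.88) and Trim30a with -2.28 (SE 0.82). The largest estimate, -3.55 for Trim14, had the widest error (SE 1.75). DESeq2 called Trim21 and Trim25, among 133 of the 12168 genes tested, and limma called Trim25, among 15. The members' median was -2.19, against -0.01 over all genes.

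**Figure D4:**
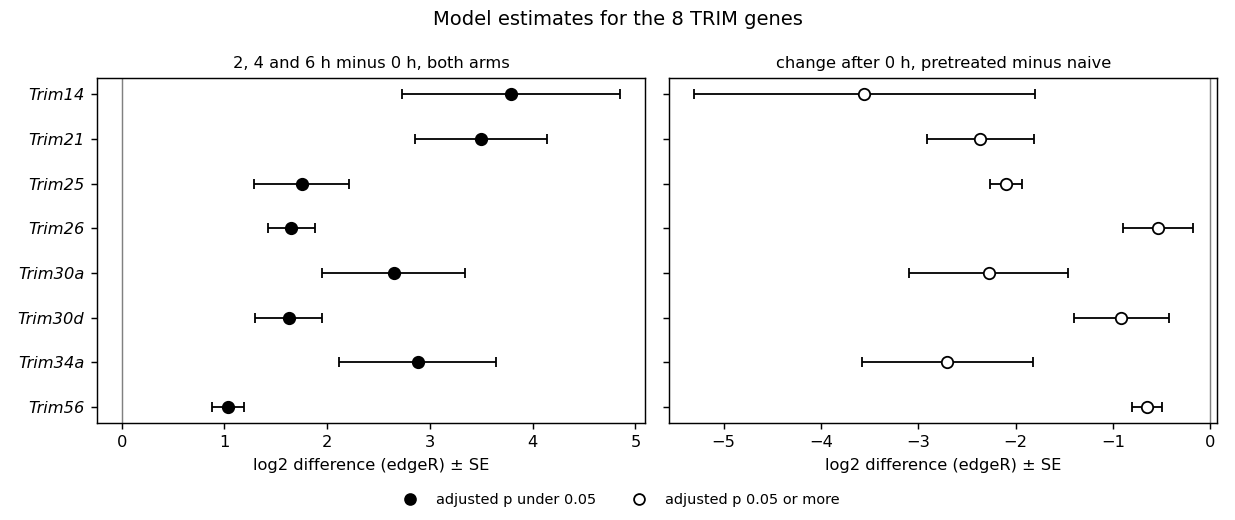
edgeR log2 estimates (horizontal axes) with their standard errors for each of the 8 genes. Left, 2, 4 and 6 h minus 0 h over both arms, where all 8 filled points lie above 0 and passed; right, the change after 0 h in pretreated minus that in naive cells, where all 8 lie below 0 and none passed, Trim25 having the narrowest error among the large estimates.

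The order of the 8 levels, which RPKM scales to transcript length, differed between times and arms. Sequence shared with related genes, described below, limits the comparison between genes, most of all for Trim34a. In naive cells at 0 h Trim26 was highest with 30.9% of the summed 48.4 RPKM, followed by Trim30d and Trim25, and Trim30a held 12.2%. At 2 h Trim25 led with 31.2% of 328.6 RPKM. At 6 h Trim30a led with 35.8% of 417 RPKM, while Trim25, Trim30d and Trim26 held between 12.6 and 14.9% each. In pretreated cells Trim30a led already at 0 h with 27.6% of 157 RPKM, and at 6 h with 35.0% of 364 RPKM. Neighbours such as Trim25 and Trim30d at 6 h, with 57.7 and 56.2 RPKM in pretreated and 62.0 and 61.3 RPKM in naive cells, cannot be ordered without replicates.

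How far the counts belong to the named gene differed. The longest protein-coding transcript of each gene in GENCODE M21 was cut into all stretches of 50 bases, and those also found in transcripts of other genes were counted. The share was 41.3% for Trim34a, shared with Trim34b, 8.29% for Trim30d and 6.53% for Trim30a, mostly with each other, and at most 0.292% for the other 5. The sources used here do not say how reads that fit several genes were counted, so the levels of Trim34a are the least certain. Trim34b itself stood at 2.69, 4.32, 7.86, 8.88 and 7.70 RPKM in pretreated and 0.425, 0.981, 4.95, 8.62 and 9.51 RPKM in naive cells from 0 to 6 h.

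The 8 genes were chosen as interferon-regulated, with earlier results of these data known. A contrast with the rest of the family is therefore in part set by that choice. Of 59 other TRIM genes in the table (Pml included), 30 passed the filter, of which 7 rose and 8 fell at 2 to 6 h over 0 h in edgeR, with a median log2 change of -0.05. The edgeR calls were 19.9% higher and 20.0% lower over all genes. Those that rose were Trim34b by 2.70 (SE 0.67), Trim12c by 2.15 (SE 0.60), Trim69 by 2.07 (SE 0.56), Trim12a by 2.01 (SE 0.62), Pml by 1.36 (SE 0.28), Trim23 by 0.70 (SE 0.15) and Trim39 by 0.36 (SE 0.11). Trim12a and Trim12c are the mouse relatives of the human retroviral restriction factor TRIM5, and Pml is the scaffold of nuclear bodies. The 8 that fell changed by less than 1 on the log2 scale, among them Trim65 by -0.85 (SE 0.15), Trim32 by -0.62 (SE 0.10) and Trim28, the corepressor KAP1, by -0.35 (SE 0.08).

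Of 7 other listed TRIM genes of chromosome 7 in the table, 4 passed the filter. Of these, 3 rose (19.9% of all genes), namely Trim34b, Trim12a and Trim12c. Their distances from the members were not measured. Trim12a stood at 13.1 RPKM in the pretreated and 1.75 RPKM in the naive 0 h library and Trim12c at 9.84 and 1.57 RPKM, both more than 2-fold apart like Trim30a and Trim34a. Trim68, the fourth, had a log2 change of -0.12 (SE 0.22) and was not called.

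**Figure D5:**
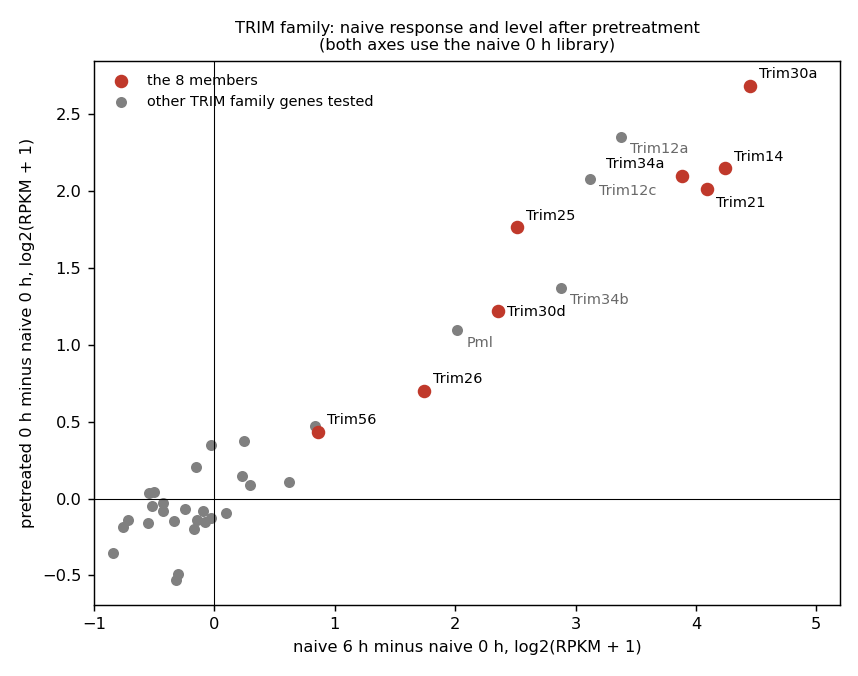
Pretreated 0 h minus naive 0 h (vertical axis) against naive 6 h minus naive 0 h (horizontal axis), both on the log2(RPKM + 1) scale, for the 8 members (red) and the 30 other TRIM family genes tested (grey). Both axes use the naive 0 h library, so part of the slope is built in; Trim30a lies farthest out at 4.45 and 2.69, and Trim12a, Trim12c, Trim34b and Pml are the grey points beyond 1 on both axes.

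Likeness of pattern was measured by Pearson's correlation of log2(RPKM + 1) over the 10 libraries, among 2673 genes with a range of at least 1. It is given without a p-value, since all points share the same libraries. Trim30a was most like Mitd1 (0.998), Parp12 (0.998) and Gvin1 (0.996), and Trim34a most like Trim34b (0.996), Mitd1 (0.995) and Trim30a (0.995). Trim30d was most like Trim30a (0.995), Trim34b (0.994) and Gm8979 (0.993), and Trim14 most like Gm8979 (0.994), Parp11 (0.994) and Gm6904 (0.993). Trim21 was most like Mx1 (0.988), Fam46a (0.987) and Cxcl10 (0.978), and Trim26 most like Whamm (0.990), Zufsp (0.989) and Fam46a (0.984). Trim25 was most like Ifit1 (0.978), Snora31 (0.972) and Irgm1 (0.967), and Trim56 most like N4bp1 (0.983), Slc25a28 (0.976) and Papd7 (0.966). Among the members themselves the correlation ran from 0.995 between Trim30a and Trim30d down to 0.528 between Trim14 and Trim56.

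Several signalling proteins that TRIM ligases act on had transcripts that moved in the same libraries. Of 15 such genes 9 rose and 3 fell at 2 to 6 h over 0 h in edgeR (19.9% and 20.0% of all genes), with a median log2 change of 0.38. The share that fell was that of all genes. Ddx58, which encodes RIG-I, the target of TRIM25, rose by 2.32 (SE 0.65), and stood at 63.4 RPKM in the pretreated and 8.57 RPKM in the naive 0 h library. Ifih1, for the related sensor MDA5, rose by 3.89 (SE 0.90). Zc3hav1, for the antiviral protein ZAP, which needs TRIM25 as a cofactor, rose by 1.67 (SE 0.33) and, like Trim26, had its highest naive level at 4 h (89.9 RPKM) and its highest pretreated level at 2 h (83.6 RPKM). Rnf135, for the ligase Riplet, which also acts on RIG-I, rose by 1.70 (SE 0.31).

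The 3 that fell were Mavs, Irf3 and Tab1. Mavs, the partner of TRIM14, fell by 0.55 (SE 0.07), with 11.1 to 12.2 RPKM in pretreated and 11.03 to 11.7 RPKM in naive cells at 2 to 6 h, against 16.8 RPKM in the pretreated and 18.3 RPKM in the naive 0 h library. Irf3, the target of TRIM26, had a log2 change of -0.41 (SE 0.11) and Tab1 one of -0.32 (SE 0.09), both called, while Tab2 and Tab3, the targets of TRIM30a, were not called (0.01, SE 0.10, and 0.19, SE 0.08). Tmem173, which encodes STING, the target of TRIM56, was not called over both arms. It had 34.2, 29.7, 33.3, 28.1 and 32.2 RPKM in pretreated cells at 0, 1, 2, 4 and 6 h, against 25.6, 58.2, 59.7, 37.2 and 29.4 RPKM in naive cells, so that only the naive arm was higher at 1 and 2 h. That difference between arms was not called (arm by stimulation, edgeR adjusted p = 0.809).

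Stat2 and Irf9, whose products carry the interferon signal to promoters, stood higher in pretreated cells at 0 h too. Stat2 stood at 97.2 RPKM in the pretreated and 9.30 RPKM in the naive 0 h library, and Irf9 at 69.5 and 11.6 RPKM. Stat2 rose by 2.41 (SE 0.77) at 2 to 6 h over 0 h in edgeR, while Irf9, with 1.37 (SE 0.54, edgeR adjusted p = 0.0797), was not called. Irf1, a transcription factor that binds similar elements, rose by 2.01 (SE 0.31), and the receptor gene Ifnar1 had a log2 change of -0.11 (SE 0.08) and was not called.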

How the data were processed

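RNA-seq of 10 libraries (2 arms, 5 times, 1 library each) was used. The authors deposited 1 table with unnormalised tag counts and RPKM values per RefSeq transcript of mm10, per the file headers; Bowtie, TopHat and Cufflinks 1.2.1 are named in the submitters' processing notes with no role. The sources used here do not give the counter, strand setting or multi-mapping rule. In 7630 genes above 5 RPKM throughout, the count to RPKM ratio deviated from 1 factor per library and transcript by at most 0.000167 (log2). Of 30646 rows, 15 named no gene (0.0158% to 0.0193% of counts) and were left out. The row of highest mean RPKM was kept for each of 23370 symbols, and the 12168 genes that reached 1 RPKM in 2 or more libraries were tested.

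Counts were tested with edgeR 4.0.16 (quasi-likelihood, TMM, two-sided, Benjamini-Hochberg over all genes tested, threshold 0.05). Models held time and arm (4 residual degrees of freedom), or also arm by stimulation (3). Nothing says that libraries came from separate cultures. Fold differences between single libraries use log2(RPKM + 1) and have no test, and counting intervals (95%, exact binomial on the counts of both libraries) cover counting error only. Alternatives were other size factors, DESeq2 1.42.0, limma 3.58.1 on log2(RPKM + 1), no filter, summed rows, another pseudocount and libraries left out. Genes named are the 8 members, the 3 most alike genes of each, and members of lists. Members and lists were chosen with earlier results of these data known. The list of genes that carry the interferon signal is given in part, since 1 gene of it is not reported here.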

Additional observations from a re-analysis of the deposited data

How the results depend on the processing

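For 2 to 6 h over 0 h, all 8 members were called with other size factors, DESeq2, limma, no filter and summed rows, and 4 without the pretreated 1 and 4 h libraries. With single libraries left out, 0 to 8 members were called (0 without naive 0 h, 7 without the 2 h library of either arm, when Trim14 was lost), and 8 to 4983 genes against 4859. Between the arms, 154 genes were called in edgeR, 1371 in DESeq2 (2 members), 316 with no filter, 14 without the pretreated 1 and 4 h libraries and 2 to 175 with single libraries left out. The Trim56 estimate, near 0, was -0.006 (log2) with no filter and -0.125 to 0.057 with single libraries left out, and that of Trim25 -0.233 to 0.290. For arm by stimulation, edgeR called 0 genes, DESeq2 133 (2 members), limma 15 (1 member) and edgeR with no filter 28 (1 member). This test could not be fitted without either 0 h library. The causes were not tested. Counts of members 2-fold apart between single libraries stayed within 1.5 times of those reported under a pseudocount of 0.1, TMM library sizes and row means. For naive 1 h against 0 h the count, reported as 4, was 3 with TMM library sizes and 6 with the pseudocount of 0.1. The models already set the arms against each other within times, and the labels give no replicate numbers for a further block. The 16 counts of Trim14 at naive 0 h limit its folds.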

Other observations

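The enzymes that hand ubiquitin and ISG15 to ligases split in these data. Of 14 listed genes 4 rose and 0 fell at 2 to 6 h over 0 h in edgeR (19.9% and 20.0% of all genes). Uba7, the activating enzyme of the ubiquitin-like protein ISG15, rose by 3.18 (log2, SE 0.92), and Ube2l6, its conjugating enzyme, by 2.07 (SE 0.58). At 0 h Uba7 stood at 17.0 RPKM in pretreated and 1.21 RPKM in naive cells, and Ube2l6 at 72.6 and 12.2 RPKM. The ubiquitin-conjugating genes Ube2v2 and Ube2d3 rose by 0.45 (SE 0.09) and 0.31 (SE 0.10). Isg15 itself, with 82.7 RPKM in pretreated and 0.608 RPKM in naive cells at 0 h, was not called at a log2 change of 3.42 (SE 1.35), with an edgeR adjusted p of 0.0796. Uba1, the main ubiquitin-activating enzyme, stood between 172 and 200.3 RPKM in pretreated and 186 and 207 RPKM in naive libraries. Ube2n, whose product builds the chains that TRIM ligases of this kind are known to use, stood between 21.3 and 26.9 RPKM in pretreated and 21.8 and 32.8 RPKM in naive libraries, and was not called.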
